A study of Mus musculus with 102 samples.

Results

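The 4 Hox gene clusters of the mouse were described as stretches of chromatin in embryonic stem (ES) cells, by chromatin immunoprecipitation with sequencing (ChIP-seq). The clusters were taken as fixed intervals of the mm9 build, HoxA at chr6:52095000-52225000, HoxB at chr11:96040000-96235000, HoxC at chr15:102745000-102875000 and HoxD at chr2:74490000-74610000. Together they span 575 kb. The 38 member genes are 10 of HoxA, 10 of HoxB, 9 of HoxC and 9 of HoxD. A peak or region was a member where it touched an interval by 1 bp or more. This gave 97 of 82053 peaks of H3K4me1 (histone H3 monomethylated at lysine 4), 69 of 53501 peaks of the dimethylated form H3K4me2, 67 of 34553 peaks of the trimethylated form H3K4me3, and 92 of 67697 regions with listed chromatin proteins. No annotation of the mm9 build was used, so no value was tied to a single gene.

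The peaks come from R1 ES cells of strain 129SV, in a wild-type line and a line of genotype MLL3/4 double catalytic dead, here called catalytic-dead cells. MLL3 and MLL4 are the enzymes known for monomethylating H3K4 at enhancers, and in the second line both proteins lack catalytic activity. Both R1 lines were grown on mouse embryonic fibroblast (MEF) feeders in medium with leukemia inhibitory factor. A feeder-free passage before harvest is given for the other ES cells of the study and not for R1 cells. Embryonic fibroblasts are known to express Hox genes, and the share of feeder chromatin in the libraries was not measured. The regions come from 129/Ola ES cells with no genotype label, in which 17 chromatin proteins and H3K27ac were profiled. The labels give 2 libraries per mark and R1 line, but the tables hold 1 value per line and peak. How deeply the libraries were sequenced is unknown, the values carry no replicate spread, and no difference below was tested. Whether the libraries of a line are separate cultures, and whether the catalytic-dead line is 1 clone, was not stated. In bulk cells, a weaker mark in every cell and a mark carried by fewer cells cannot be told apart.

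Hox genes encode homeodomain transcription factors that give cells their position along the body axis. Their order along the chromosome follows their order of expression along the body, a property called collinearity, from anterior members such as Hoxb1 and Hoxd1 to posterior members such as Hoxa13 and Hoxd13. In ES cells the clusters are mostly silent and are known as classic bivalent chromatin, where Polycomb proteins and H3K27me3 lie together with H3K4me3. H3K4me3 is known for promoters and CpG islands, H3K4me1 for enhancers and promoter edges, and H3K27ac for active elements.

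Promoter sequences show how far CpG content varied between the member genes. RefSeq windows of the GRCm38.p6 build were matched by symbol for 22 of the 38 genes, with 24 start sites. Most were of HoxA and HoxD. HoxB had only Hoxb1, Hoxb4 and Hoxb8 and HoxC only Hoxc4, so the values mainly describe HoxA and HoxD. In the 250 bases before each start site the dinucleotide CG, which reads the same on both strands, was counted. The median was 12.5 per window, against 6 over 32851 windows of all genes, and 15 of the 24 windows (62.5%) held 10 or more, against 37.8% of all windows. The member windows ranged from 2, at one of the start sites of Hoxd11, to 35, at Hoxa13. The windows of 3 genes are shown 5′ to 3′ on the gene's strand, with CG in capitals, as examples of CG-rich and CG-poor windows. Hoxa13, which patterns digits and the urogenital tract, has its window at chr6:52260881-52261130, minus strand, with 35 CG. Only 2.97% of all windows hold as many or more. Hoxd13, a digit gene at the opposite end of its cluster from Hoxd1, has its window at chr2:74667975-74668224, plus strand, with 31 CG, a count reached by 5.19% of windows. Hoxd4, which acts in the hindbrain and neck vertebrae, has its window at chr2:74721728-74721977, plus strand, with 3 CG, a count reached by 71.0% of windows.
Hoxa13: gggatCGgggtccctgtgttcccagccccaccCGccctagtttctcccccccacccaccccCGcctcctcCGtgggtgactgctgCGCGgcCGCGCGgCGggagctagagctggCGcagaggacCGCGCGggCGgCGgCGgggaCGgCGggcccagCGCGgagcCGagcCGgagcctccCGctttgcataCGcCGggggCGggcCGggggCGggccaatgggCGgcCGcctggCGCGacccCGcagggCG
Hoxd13: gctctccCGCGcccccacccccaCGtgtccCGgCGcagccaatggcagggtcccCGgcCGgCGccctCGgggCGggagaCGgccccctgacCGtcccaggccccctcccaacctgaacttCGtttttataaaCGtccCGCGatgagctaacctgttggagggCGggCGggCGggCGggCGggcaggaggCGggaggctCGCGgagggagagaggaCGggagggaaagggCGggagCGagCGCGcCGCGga
Hoxd4: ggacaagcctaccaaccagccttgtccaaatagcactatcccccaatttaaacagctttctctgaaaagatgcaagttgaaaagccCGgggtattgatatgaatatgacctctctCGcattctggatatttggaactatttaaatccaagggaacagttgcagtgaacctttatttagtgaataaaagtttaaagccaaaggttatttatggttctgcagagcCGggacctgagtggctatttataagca
These windows are of another build than the peaks and were not placed on them.

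All 4 clusters were densely covered by H3K4 methylation in R1 cells, much more so than their surroundings. Peaks of H3K4me1 lay over 312.2 kb of the 575 kb (54.3%), those of H3K4me2 over 291.6 kb (50.7%) and those of H3K4me3 over 259.6 kb (45.2%). In the 200 kb on each side of the clusters, 1600 kb in all, the shares were 15.3%, 10.6% and 7.02%. HoxA was the most covered, with 71.0% of its length under H3K4me1, 71.5% under H3K4me2 and 64.0% under H3K4me3. HoxD was the least covered for the higher states, with 34.7% under H3K4me2 and 30.8% under H3K4me3. HoxB and HoxC lay between for these 2 marks. The map of the clusters shows this density and the change of each peak.

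**Figure D1:**
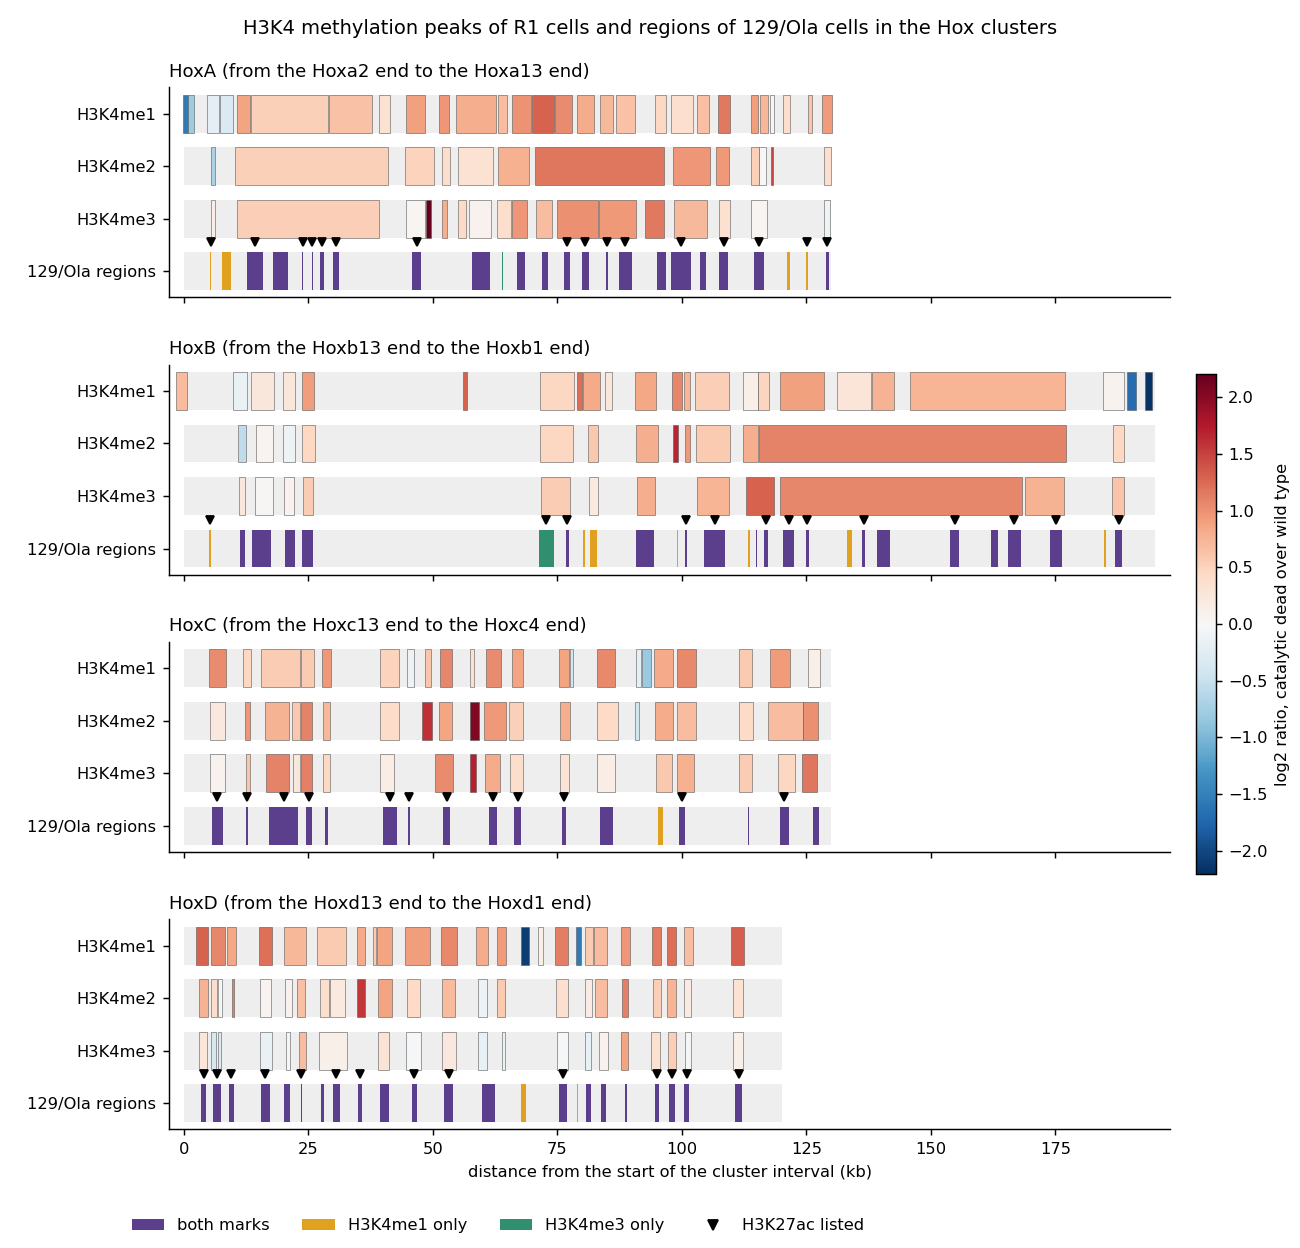
Map of the 4 clusters, with distance from the start of each interval in kb on the horizontal axis. The upper 3 rows of each panel are R1 peaks coloured by the log2 ratio of fold enrichment in catalytic-dead over wild-type cells, the lowest row holds the 129/Ola regions by mark class, and triangles mark listed H3K27ac. Long merged peaks stand out in HoxA and HoxB, and the 5 peaks of H3K4me1 called decreased are the dark blue ones.

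HoxA and HoxB held some of the widest H3K4 methylation peaks of the whole tables. The widest H3K4me2 peak of all 53501 was in HoxB, chr11:96155565-96217067, with 61.5 kb, toward the Hoxb1 end of the cluster. The widest H3K4me3 peak of all 34553 lay inside it, at chr11:96159788-96208372, with 48.6 kb. HoxA held the peak next in width for each of these marks, 30.7 kb at chr6:52105274-52135957 for H3K4me2 and 28.4 kb at chr6:52105725-52134138 for H3K4me3, near the Hoxa2 end. Of the 3 H3K4me3 peaks of 20 kb or more in the table, 2 were in these clusters. For H3K4me2 they were 3 of 21, the other one being chr6:52165474-52191399 in HoxA with 25.9 kb. For H3K4me1 1 of 38 was in a cluster, chr11:96185728-96216915 with 31.2 kb. A single value over such a peak averages over many genes. HoxC and HoxD had no such peaks: their widest H3K4me3 peaks were 4.69 kb (chr15:102761417-102766108) and 5.61 kb (chr2:74517133-74522743). Their widest H3K4me1 peaks were 7.79 kb (chr15:102760421-102768214) and 5.79 kb (chr2:74516724-74522511).

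The values of both lines were compared first for H3K4me1, the mark that MLL3/4 are known to place. The values in the tables were out of step with the positions and were put back beside the positions of their own chromosome before use. The results on both lines rest on that step: with the values as deposited, the medians over all clusters were a log2 ratio of 0.13 (H3K4me1), 0.0062 (H3K4me2) and -0.019 (H3K4me3). Inside the clusters H3K4me1 was higher in catalytic-dead cells at 84 of 97 peaks (86.6%), against 44.8% of all peaks of the table. The median fold enrichment was 2.85 in the wild-type line and 4.35 in the catalytic-dead line, and the median log2 ratio, positive where the catalytic-dead line is higher, was 0.71. It was 0.67 in HoxA, 0.54 in HoxB, 0.59 in HoxC and 0.87 in HoxD, where most peaks were in the proximal group described below. A peak was called increased or decreased at a 2-fold change, the class the authors deposited, which is a rule of size and not a test. By that rule 19 peaks were called increased and 5 decreased (19.6% and 5.15%), against a background of 15.2% increased and 28.4% decreased over all peaks of the table. That background mixes groups of peaks that are separated below.

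The ratio varied with where the peaks lie and with the other marks they carry. The authors placed each peak in a proximal or distal group, by its distance from promoters as the names read. The 57 proximal peaks of the clusters had a median log2 ratio of 0.83, against 0.84 over all proximal peaks of the table. The 40 distal peaks had 0.56, while all distal peaks of the table had -0.65, and distal peaks of the 200 kb flanks had -0.08 (88 peaks). By the 2-fold rule 24.6% of the proximal peaks of the clusters were called increased, less than the 37.3% of the table. For distal peaks the shares were 12.5% and 5.66%. Called decreased were 3.51% of proximal and 7.5% of distal peaks, against 6.79% and 37.7% in the table. H3K4me1 was higher in catalytic-dead cells at 94.7% of proximal and 75% of distal peaks, against 81.1% and 29.2%. Of the 40 distal peaks of the clusters, 24 carried H3K4me3 too. Of the 97 peaks, 72 overlapped an H3K4me3 peak, with a median of 0.82, and all H3K4me1 peaks of the table that overlapped one had 0.71. Among distal peaks with H3K4me3 the medians were 0.57 in the clusters (24 peaks) and 0.30 in the table. The 25 peaks without H3K4me3 had 0.14 in the clusters and -1.01 in the table. These differences were not tested.

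**Figure D2:**
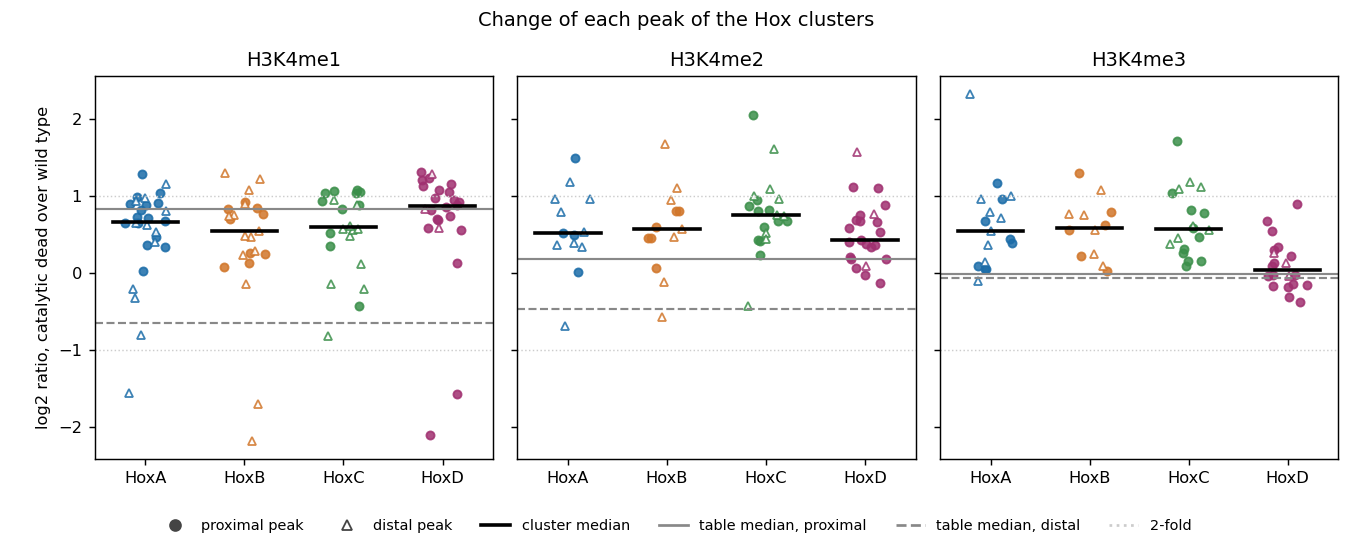
Log2 ratio of fold enrichment in catalytic-dead over wild-type cells (vertical axis) for each peak of each cluster, with filled circles for proximal and open triangles for distal peaks. Black bars are cluster medians and grey lines are the medians of all proximal (solid) and distal (dashed) peaks of the table. Cluster medians lie above the distal line in each panel, and for H3K4me3 HoxD sits at 0.04 while the other clusters are at 0.54 to 0.59.

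The H3K4me1 peaks called increased were spread over all clusters, with 3 in HoxA, 3 in HoxB, 5 in HoxC and 8 in HoxD. In HoxD the highest ratio was at chr2:74599937-74602473, toward the Hoxd1 end, where fold enrichment was 2.32 in the wild-type line and 5.77 in the catalytic-dead line (log2 ratio 1.32). The HoxD peak with the highest wild-type value, chr2:74587082-74588901, went from 3.63 to 8.54 (1.24), the highest H3K4me1 value of any cluster in catalytic-dead cells. The other 6 had log2 ratios from 1.05 to 1.29. In HoxA the highest ratio was at chr6:52164894-52169314, with 2.22 and 5.42 (1.29). The HoxA peak chr6:52202318-52204557, which is distal, had 3.16 and 7.06 (1.16), and chr6:52169477-52172888 had 1.89 and 3.88 (1.04).

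HoxB differed in that its 3 increased peaks were weak in wild-type cells. They were chr11:96095998-96096827 with 1.04 and 2.57 (1.30), chr11:96118831-96120013 with 1.03 and 2.40 (1.22), and chr11:96138006-96140029 with 1.56 and 3.30 (1.08). These 3 had the lowest wild-type values of all 97 peaks, and none overlapped an H3K4me3 peak. Peaks this weak in wild-type cells may be listed only through their value in catalytic-dead cells. The strongest wild-type peak of HoxB, chr11:96224591-96228818, had 3.95 and 4.17 (0.08), and that of HoxA, chr6:52192868-52197266, had 3.48 and 4.48 (0.36). In HoxC the 5 increased peaks were proximal and had nearly the same ratio, from 1.04 to 1.07. The largest was at chr15:102796348-102798737 with 2.72 and 5.74, and the one with the highest wild-type value was chr15:102805555-102808623 with 3.39 and 6.98.

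The 5 decreased H3K4me1 peaks had no overlapping H3K4me2 or H3K4me3 peak. At the outer edge of HoxA, at the Hoxa2 end, chr6:52094852-52095795 had 3.36 in the wild-type line and 1.14 in the catalytic-dead line (-1.56). At the outer edge of HoxB, at the Hoxb1 end, chr11:96233052-96234391 had 3.27 and 0.722 (-2.18) and chr11:96229433-96231122 had 3.39 and 1.04 (-1.70). HoxD held its 2 decreased peaks inside the cluster, both in the proximal group, chr2:74557697-74559314 with 2.88 and 0.675 (-2.10) and chr2:74568627-74569746 with 2.88 and 0.976 (-1.56). Both HoxD peaks lay on regions that carried H3K4me1 without H3K4me3 in 129/Ola cells and that the authors listed as poised enhancers. The increased HoxB peak chr11:96138006-96140029 lay on such a region too. Of the 9 peaks assigned to regions with H3K4me1 only, 5 were higher in catalytic-dead cells, with 1 called increased and 2 decreased. In HoxC no peak was called decreased, and its lowest was chr15:102837057-102838726 with 2.63 and 1.49 (-0.82). Of the 17 peaks of the clusters without H3K4me2, 5 were decreased (29.4%), and of the 80 with H3K4me2 none was. Over the table the shares were 57.7% and 12.7%.

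The dimethylated form was higher in catalytic-dead cells at most peaks of every cluster. H3K4me2 was higher at 63 of 69 peaks (91.3%), against 43.2% of all peaks of the table and 70.1% of its proximal peaks. The median fold enrichment was 4.68 in the wild-type line and 7.03 in the catalytic-dead line, and the median log2 ratio was 0.58. The cluster medians were 0.52 in HoxA, 0.57 in HoxB, 0.75 in HoxC and 0.44 in HoxD. All proximal peaks of the table had 0.18 and all distal peaks -0.46, whereas the 41 proximal peaks of the clusters had 0.54 and the 28 distal ones 0.75. In the 200 kb flanks the medians were 0.21 for 24 proximal and -0.19 for 58 distal peaks. By the 2-fold rule 10 peaks of the clusters were called increased (14.5%) and 0 decreased, against a background of 1.91% increased and 23% decreased.

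The H3K4me2 peaks called increased had little H3K4me2 in wild-type cells, apart from the merged ones. Such weak peaks may be listed only through their value in catalytic-dead cells, which would select for a high ratio. The highest log2 ratio, 2.05, was at chr15:102802393-102804195 in HoxC, with 0.664 in the wild-type line and 2.76 in the catalytic-dead line. Others in HoxC were chr15:102792714-102794727 with 1.07 and 3.27 (1.61) and chr15:102768503-102770680 with 1.97 and 4.19 (1.08). In HoxB chr11:96138265-96139228 had 1.19 and 3.80 (1.67), on the same spot as an increased H3K4me1 peak. The 61.5 kb peak of HoxB was called increased as well, with 4.54 and 9.71 (1.10), and so was the 25.9 kb peak of HoxA, with 3.10 and 7.0 (1.17). In HoxA chr6:52212848-52213374 had 1.14 and 3.22 (1.49). HoxD had chr2:74524731-74526360 with 1.54 and 4.57 (1.57), chr2:74499655-74500097 with 2.34 and 5.04 and chr2:74577878-74579110 with 2.57 and 5.56, both at 1.11.

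The strongest H3K4me2 peak of each cluster had a log2 ratio between 0.01 and 0.69. In HoxA the highest wild-type value, 11.3 at chr6:52210523-52211780, stood beside 11.4 in catalytic-dead cells (0.01). In HoxC it was 11.7 at chr15:102750207-102753328, beside 13.8 (0.24), and in HoxB 7.74 at chr11:96226627-96228785, beside 10.6 (0.45). In HoxD it was 10.1 at chr2:74541834-74544402, beside 16.2 (0.69). The lowest ratios were -0.69 at chr6:52100357-52101330 in HoxA (4.83 and 2.99), -0.56 at chr11:96050949-96052419 in HoxB (6.07 and 4.11), -0.42 at chr15:102835648-102836324 in HoxC (3.59 and 2.67) and -0.13 at chr2:74549056-74550942 in HoxD (8.97 and 8.20). The first 3 are distal peaks.

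Peaks weaker in wild-type cells tended to have higher ratios for all 3 marks in the clusters. Spearman's rho of wild-type fold enrichment with the log2 ratio of H3K4me2 was -0.64 over the 69 peaks of the clusters and 0.33 over the whole table. For H3K4me1 it was -0.50 over 97 peaks and -0.58 over the table, and for H3K4me3 -0.57 over 67 peaks and -0.10. The wild-type value is also the denominator of the ratio, peaks of 1 table share their libraries, and peaks are not replicates. How a peak entered the table was not stated. A peak weak in wild-type cells may be listed only because it is high in catalytic-dead cells, and its ratio is then high by selection. Of the H3K4me2 peaks with a wild-type value at or below the table median, the 25 of HoxA, HoxB and HoxC had a median log2 ratio of 0.95 and the 11 of HoxD 0.66. In the whole table such peaks had -0.22 when proximal and -0.67 when distal. Above the table median the values were 0.46 (21 peaks) and 0.35 (12 peaks), against 0.21 for proximal and -0.21 for distal peaks of the table. The split by wild-type level was chosen after the values were seen. The plot of levels in both lines shows the weakest H3K4me2 and H3K4me3 peaks lying farthest above the diagonal.

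**Figure D3:**
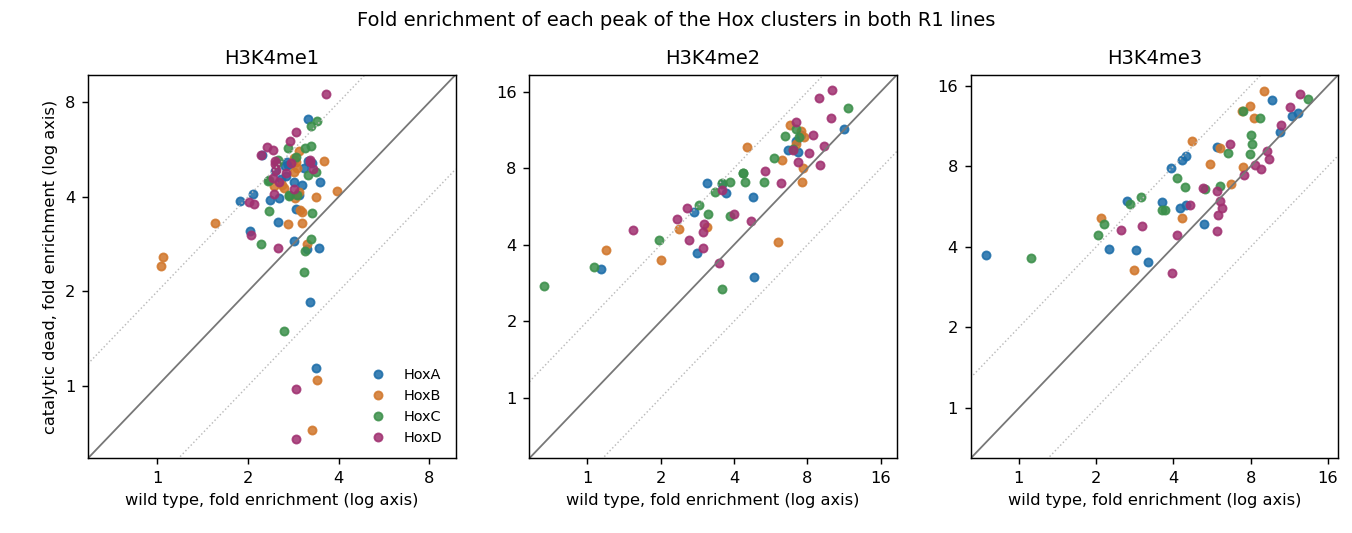
Fold enrichment of each peak in wild-type (horizontal) and catalytic-dead cells (vertical), both on log axes, by cluster. The solid line marks equal values and the dotted lines a 2-fold difference. For H3K4me2 and H3K4me3 no peak lies below the lower dotted line and the peak with the lowest wild-type value lies above the upper one, while 5 H3K4me1 peaks lie below the lower line.

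HoxD had the lowest median H3K4me3 log2 ratio of the clusters. The median log2 ratio was 0.54 in HoxA (17 peaks), 0.59 in HoxB (12 peaks) and 0.57 in HoxC (18 peaks), but 0.04 in HoxD (20 peaks). H3K4me3 was higher in catalytic-dead cells at 46 of 47 peaks of HoxA, HoxB and HoxC and at 10 of 20 peaks of HoxD. Over the table it was higher at 46.3% of peaks. The median fold enrichment went from 4.71 to 7.24 in HoxA, HoxB and HoxC and from 6.13 to 6.55 in HoxD. Over the table the median log2 ratio was -0.01 at proximal and -0.07 at distal peaks, and in the 200 kb flanks it was 0.10 (53 peaks). Within the clusters it was 0.28 at 42 proximal and 0.56 at 25 distal peaks. Most HoxD peaks were proximal, while the other clusters together held a more even mix. Cluster and peak group were not separated. By the 2-fold rule 10 of the 67 peaks were called increased (14.9%) and 0 decreased, against a background of 3.15% increased and 4.48% decreased. No HoxD peak was among the 10. Without the weakest 25% of peaks by mean the HoxD median was -0.024.

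The gap between HoxD and the other clusters was present at weak and at strong peaks. Among peaks with a wild-type value at or below the table median of 6.53, the medians were 0.68 in HoxA, HoxB and HoxC (31 peaks) and 0.10 in HoxD (11 peaks). Above it they were 0.32 (16 peaks) and -0.02 (9 peaks). The 16 peaks differed by cluster, with 0.07 in HoxA (4 peaks), 0.65 in HoxB (6 peaks) and 0.32 in HoxC (6 peaks). For H3K4me1 HoxD had the highest median of the clusters, 0.87. Most of its H3K4me1 peaks were proximal, while the other clusters held larger shares of distal peaks. All proximal H3K4me1 peaks of the table had 0.84. For H3K4me2 its median was 0.44, the lowest, but with quantile normalization it was 0.52, above HoxA with 0.45 and HoxB with 0.40. Within HoxD the highest H3K4me3 ratio was 0.89 at chr2:74577735-74579096 (2.5 and 4.63), where H3K4me2 was called increased, and the lowest was -0.37 at chr2:74495421-74496348 (5.94 and 4.59). The strongest HoxD peak, chr2:74493007-74494713 near the Hoxd13 end, had 12.4 and 14.9 (0.27).

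The increased H3K4me3 peaks of the other clusters included the widest of the table. The 48.6 kb peak of HoxB had 4.71 in the wild-type line and 9.94 in the catalytic-dead line (1.08), and next to it chr11:96152791-96158459 had 2.09 and 5.14 (1.30). In HoxA the highest ratio, 2.32, was at chr6:52143655-52144680, with 0.745 and 3.73, the one H3K4me3 peak of the clusters without an overlapping H3K4me1 peak. The other HoxA peaks were chr6:52187516-52191395 with 2.65 and 5.93 (1.16) and chr6:52169958-52178208 with 3.92 and 7.87 (1.0). In HoxC they were chr15:102802432-102803687 with 1.12 and 3.64 (1.71), chr15:102869062-102872043 with 2.14 and 4.85 (1.18), chr15:102768500-102770663 with 2.04 and 4.42 (1.12), the widest HoxC peak with 2.71 and 5.78 (1.09), and chr15:102795341-102798947 with 3.0 and 6.16 (1.04). The first of these and its H3K4me2 counterpart are the same spot, weak in wild-type cells for both marks.

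The strongest H3K4me3 peak was nearly level between the lines in HoxA and HoxC and higher in the catalytic-dead line in HoxB. In HoxC chr15:102750201-102753245, near the Hoxc13 end, had the highest wild-type value of all clusters, 13.4, with 14.3 in catalytic-dead cells and the lowest ratio of HoxC (0.09). In HoxA the highest was 12.2 at chr6:52139551-52143485, with 12.6 (0.05). HoxB differed, since its highest, 9.03 at chr11:96208974-96216790, stood beside 15.3 (0.76). The lowest ratio was 0.03 in HoxB, at chr11:96054351-96057842 (6.72 and 6.85), and -0.10 in HoxA, at chr6:52223528-52224757 (5.24 and 4.88).

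Position along the cluster was described by cutting each interval into 3 equal parts from its anterior end, with the gene order taken from RefSeq. This was chosen after the values were seen. The median H3K4me1 log2 ratio was 0.58 in the anterior parts (28 peaks), 0.83 in the middle (38 peaks) and 0.66 in the posterior parts (31 peaks). The low anterior value came from HoxA with 0.07 and HoxB with 0.18, whose edges hold decreased peaks, while HoxD had 0.98 there. For H3K4me2 the medians were 0.54, 0.69 and 0.46, and for H3K4me3 0.54, 0.41 and 0.25. In HoxB the posterior part, at the Hoxb13 end, had the lowest H3K4me2 and H3K4me3 medians of that cluster, -0.02 and 0.17 (4 peaks each), against 0.80 and 0.75 in its middle.

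In 129/Ola cells most listed regions of the clusters carried both H3K4me1 and H3K4me3. Of the 92 regions 76 carried both marks, 14 H3K4me1 only and 2 H3K4me3 only. Of all 67697 regions, 18425 carried both marks and 41819 H3K4me1 only. Regions with both marks covered 20.6% of the length of the clusters, from 17.4% in HoxB to 26.1% in HoxA, against 2.19% of the flanks. Regions with H3K4me1 only covered 1.57% of the clusters and 3.12% of the flanks, and regions with H3K4me3 only 0.578% and 1.77%. Of the 92 regions 91 overlapped an H3K4me1 peak of R1 cells, 83 an H3K4me2 peak and 79 an H3K4me3 peak. R1 H3K4me1 peaks on both-mark regions had a median log2 ratio of 0.82 (68 peaks), and those on regions with H3K4me1 only 0.40 (9 peaks).

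H3K27ac was listed at a smaller share of these regions than of all regions of the same class, and at about the share of the flanks. A value was listed from a log2 enrichment of 0.58, a fold of 1.5, and a mark not listed is below that or was not measured. H3K27ac was listed at 51 of 76 both-mark regions (67.1%, exact 95% interval 55.4% to 77.5%), against 88.3% of all both-mark regions of the table and 20 of 29 (69.0%) in the flanks. The interval treats regions as independent and covers counting error only. Where it was listed, the median was a log2 enrichment of 1.04, against 1.07 in the flanks and 1.31 over the table. Of the listed values of the table at both-mark regions 79.2% were above 1.04. Among regions of the middle widths of the clusters, a choice made after the values were seen, the shares were 71.1% of 38 regions and 90.3% of 5652 in the table.

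The share varied between the clusters, and the difference was not tested. H3K27ac was listed at 14 of 20 both-mark regions in HoxA (70.0%), 11 of 19 in HoxB (57.9%), 12 of 16 in HoxC (75.0%) and 14 of 21 in HoxD (66.7%). The highest value of each was 1.47 at chr6:52107705-52110936 in HoxA with 13 factors, 1.44 at chr11:96111237-96114348 in HoxB, a region with H3K4me3 only and 9 factors, and 1.35 at chr15:102757549-102757862 in HoxC with 6 factors. HoxD had the highest of all, 1.96 at chr2:74513476-74513661, with 16 factors. Of the both-mark regions of the table with listed H3K27ac 12.7% were above 1.96.

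The authors' lists of active and poised enhancers hold regions with H3K4me1 only, and none of the clusters' regions was in the active list. Of the 14 regions with H3K4me1 only 13 were in their list of poised enhancers and 1 in neither, chr6:52102558-52104398 in HoxA, which listed no factor and no H3K27ac. H3K27ac was listed at 3 of the 14 (21.4%), against 14 of 60 (23.3%) in the flanks and 46.4% of all such regions. Of the 41819 such regions in all, 12492 were listed as active and 19567 as poised. The flanks held 8 active and 38 poised ones.

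The 25 both-mark regions without listed H3K27ac still carried many chromatin proteins. They listed a mean of 8.92 of the 17 factors, against 11.7 in those with H3K27ac and 6.83 at both-mark regions of the table without H3K27ac. In HoxA they were chr6:52166940-52168043 with 15 factors, chr6:52198632-52199856 with 10, chr6:52112918-52115981 with 8, chr6:52152869-52156414 with 7, chr6:52190080-52191719 with 5 and chr6:52161865-52163476 with 4. In HoxB, where 4 of the 8 lie next to each other at the Hoxb13 end, they were chr11:96130713-96134294 with 15, chr11:96179164-96181726 with 13, chr11:96154835-96155044 with 12, chr11:96053687-96057489 with 10, chr11:96063771-96065849 with 7, and chr11:96051233-96052306, chr11:96060335-96062338 and chr11:96202146-96203410 with 6 each. The H3K4me3-only region of HoxA, chr6:52158804-52159016, also had no listed H3K27ac, with 7 factors.

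HoxC had 4 such regions and HoxD 7. In HoxC they were chr15:102773323-102773875 with 15 factors, chr15:102828619-102831059 with 10, chr15:102858208-102858510 with 9 and chr15:102871411-102872471 with 4. In HoxD the 4 highest were chr2:74573744-74574737 with 12, chr2:74578526-74578995 with 11, and chr2:74517527-74518094 and chr2:74570698-74571822 with 10 each. The remaining HoxD regions were chr2:74529322-74531250 with 9, chr2:74510178-74511201 with 5 and chr2:74549831-74552496 with 4.

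**Figure D4:**
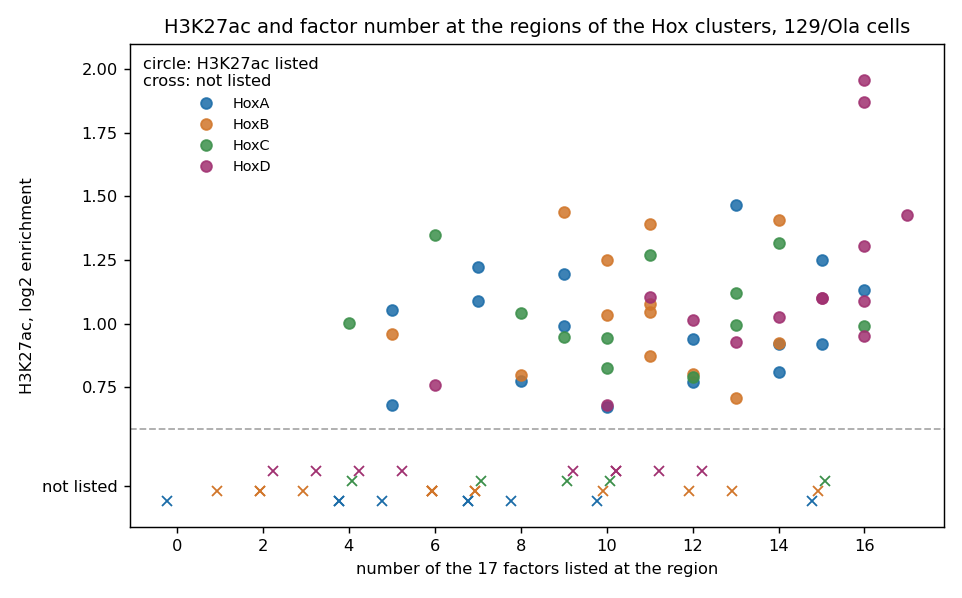
Number of the 17 factors (horizontal axis) and H3K27ac log2 enrichment (vertical axis) for each of the 92 regions, by cluster, with crosses for regions without listed H3K27ac at the foot and a dashed line at the listing limit of 0.58. HoxD holds the highest H3K27ac value, 1.96, at a region with 16 factors, and crosses reach up to 15 factors.

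Both-mark regions of the clusters listed more factors than both-mark regions in general. The mean was 10.8 ± 3.59 factors (SD over 76 regions) in the clusters, 9.22 ± 3.80 over the table and 8.83 ± 3.54 in the flanks (29 regions). The SD is the spread of single regions and not the error of a mean, and the differences were not tested. Among regions of the middle widths of the clusters, a choice made after the values were seen, the means were 11.5 (38 regions) and 9.99 (5652 regions of the table). HoxD had the highest mean, 12.1, against 10.2 in HoxA, 10.5 in HoxB and 10.2 in HoxC. Of the 76 regions 15 (19.7%) listed 15 or more factors, 8 of them in HoxD, against 7.31% of both-mark regions of the table. The HoxD region chr2:74493381-74494497, at the Hoxd13 end of the cluster, listed all 17. The most in the other clusters were 16 at chr6:52209486-52211465 in HoxA and at chr15:102811373-102812699 in HoxC, and 15 at chr11:96130713-96134294 in HoxB. Over the 92 regions of all classes the mean was 9.74.

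Each of the 17 factors was listed at a larger share of the both-mark regions of the clusters than of the table, while H3K27ac was at a smaller one. In the flanks (29 regions) RUVBL2, SAP18 and WSTF were at larger shares than in the clusters, 82.8%, 79.3% and 17.2% against 71.1%, 78.9% and 11.8%. The factors share regions and are not independent, and the differences were not tested. The labels give 1 library for SSRP1 and 2 or 3 for each other factor. The widest gaps were for SRSF1, a splicing factor, at 84.2% against 65.5%, PHRF1, which carries a PHD finger, at 84.2% against 66.9%, and SSRP1, part of the nucleosome-handling FACT complex, at 80.3% against 64.9%. The smallest was for RUVBL2, an ATPase of several chromatin complexes, at 71.1% against 70.0%. Among remodelers, the ISWI ATPase SNF2H was at 80.3% against 67.9%, its partner BAZ1A at 50.0% against 38.3% and its partner WSTF at 11.8% against 10.2%. The BAF ATPase BRG1 was at 38.2% against 30.0% and its core subunit BAF155 at 64.5% against 52.5%. The Mediator subunits MED1, MED12 and SUR2 were at 64.5%, 47.4% and 69.7% against 56.5%, 38.5% and 59.6%, and the cohesin subunit SMC3 at 65.8% against 57.2%.

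**Figure D5:**
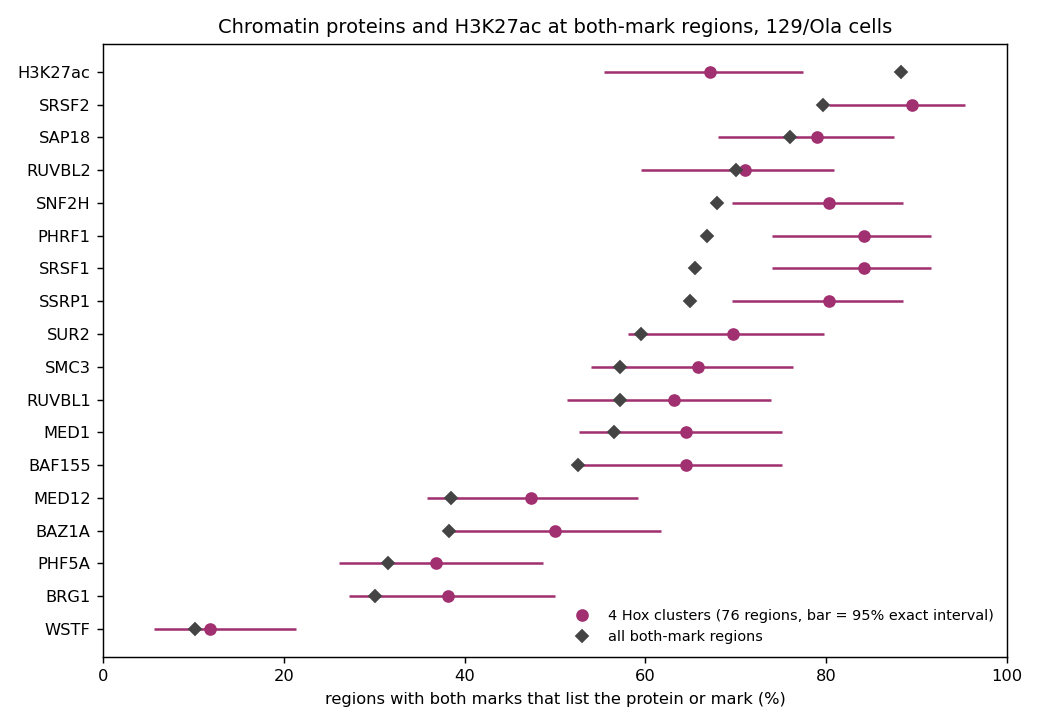
Share of both-mark regions that list each factor or H3K27ac (horizontal axis, %), with circles and exact 95% intervals for the 76 regions of the clusters and diamonds for all both-mark regions of the table. Every factor is to the right of its diamond, and H3K27ac is to the left, at 67.1% against 88.3%.

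The clusters differed among themselves in which factors were listed, over 16 to 21 both-mark regions each. SRSF2 was listed at all 19 both-mark regions of HoxB and at 81.0% of those of HoxD, whereas SRSF1 was at 73.7% and 95.2%. BRG1 was at 61.9% in HoxD, 37.5% in HoxC, 26.3% in HoxB and 25% in HoxA. MED1 was at 84.2% in HoxB and 45.0% in HoxA, and MED12 had the reverse order, 36.8% and 60%. BAZ1A was at 66.7% in HoxD and 31.3% in HoxC. The median log2 enrichment of the listed values differed little from the table, from 0.92 for PHF5A, a splicing factor subunit, to 1.2 for SSRP1, against 0.95 and 1.1.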

How the data were processed

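ChIP-seq tables of mouse ES cells were used as the authors deposited them, on build mm9 per the submitters' processing notes, with positions printed as deposited. The authors deposited 3 peak tables with a fold enrichment (ratio) per peak and R1 line, and 3 region tables with log2 enrichments in 129/Ola cells. The notes name BWA 0.7.13-r1126, Picard 2.11.0 and MACS2 2.1.0.20150731 for the R1 libraries, and Bowtie, Picard and MACS2 for the 129/Ola libraries. The labels do not give what the enrichment is relative to, nor how libraries were combined. Depth is unknown.

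In the peak tables, chromosomes are sorted as text for the positions and as numbers for the values. Values and classes were therefore moved back beside the positions of their own chromosome. Over 71 overlapping pairs of H3K4me2 and H3K4me3 peaks in the clusters, Spearman's rho of the wild-type values was 0.77 after this step and 0.09 in the deposited layout. For H3K4me1 the wild-type rho changed little, 0.11 and 0.03 with H3K4me2 (83 pairs), -0.15 and -0.14 with H3K4me3 (76 pairs). In catalytic-dead cells it was 0.43 and -0.24 with H3K4me2, 0.27 and 0.06 with H3K4me3. After the step, log2 ratios of H3K4me1 had a rho of 0.02 with those of H3K4me2 and -0.26 with those of H3K4me3. Ratios had no pseudocount. The class of change matched a ratio of 2 or 0.5 with 0 exceptions. Of 31 names in the region tables, 11 matched no 129/Ola library and were not used. No test was run. Named peaks were, per cluster and mark, the widest, the one with the highest wild-type value, the highest and lowest ratios and those called changed. Named regions were those with the highest H3K27ac, with most factors, and those with H3K4me3 and no listed H3K27ac. The members and lists were chosen with earlier results of these data known. Scripts (Python 3.11.15, pandas 2.3.3) were tested on simulated data.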

Additional observations from a re-analysis of the deposited data

How the results depend on the processing

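The order of the values decided most. In the deposited layout the medians over all clusters were 0.13 (H3K4me1), 0.0062 (H3K4me2) and -0.019 (H3K4me3), and it turned to -0.58 for H3K4me1 in HoxD, to -0.28, -0.089 and -0.17 for H3K4me2 in HoxA, HoxB and HoxC, and to -0.32 and -0.063 for H3K4me3 in HoxA and HoxC. That layout pairs peaks with values of other chromosomes. Centring on the table medians, which were -0.21, -0.13 and -0.03, gave 0.92 for H3K4me1, and quantile normalization turned the sign of no cluster median. A pseudocount of 1 gave 0.56 for H3K4me1. Without the lowest 25% of peaks, H3K4me3 in HoxD was -0.024. Peaks with wild-type values above the table median, a setting added after the data were seen, gave 0.47, 0.44 and 0.16 for H3K4me1, H3K4me2 and H3K4me3. The cause of these shifts was not tested. With only log2 values of 1 or more counted, 32.6% of regions had H3K27ac and the mean number of factors was 5.09. Intervals widened by 50 kb gave 8.95 factors and 13.3% of the length under both-mark regions. Of the other alternatives for the values over all clusters, 21 stayed within the interval of the median, the binomial interval of a share, or the SD over clusters. The alternative with all names of the region tables was not run, since 11 names match no library. No paired analysis was possible because the tables hold 1 value per line. The unknown depth limits statements on weak peaks.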
